A study of Homo sapiens with 6 samples.

Results

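The CXC chemokine genes described here are 10 rows of the deposited table of 23710 gene symbols, taken by name: IL8 (the table's name for CXCL8), CXCL1, CXCL2, CXCL3, CXCL5, CXCL9, CXCL10, CXCL11, CXCL12 and CXCL16. All 10 were in the table. THP-1 is a monocyte-like line from a human acute leukaemia. Its cells received mebendazole at 10 uM, or DMSO alone as vehicle, for 6 h before RNA sequencing, and each group has 3 libraries. Mebendazole is an anti-worm drug that binds tubulin and blocks microtubule assembly. Each library carries a sample pair number from 1 to 3 in both groups. Nothing in the labels tells whether a pair is its own culture or day, so p-values describe the spread between these libraries, which may be technical. All 6 libraries come from the same cell line, kept in RPMI 1640 medium with fetal bovine serum. The comparison asks which of these genes differ in RNA level between mebendazole and vehicle.

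CXC chemokines are small proteins whose paired cysteines are separated by a single residue, and most are secreted to attract leukocytes. Those with a glutamate-leucine-arginine (ELR) motif ahead of the first cysteine, among them IL8, CXCL1, CXCL2, CXCL3 and CXCL5, draw neutrophils through the receptors CXCR1 and CXCR2, and their genes are classical targets of NF-kB. CXCL9, CXCL10 and CXCL11 lack that motif, are induced by interferons and draw activated T cells through CXCR3. CXCL12 holds blood stem cells and leukocytes in tissues through CXCR4, and CXCL16 is made as a membrane-bound protein that is read by CXCR6. Monocytes and macrophages are a known source of the ELR chemokines after microbial or inflammatory stimulation.

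Library totals lay between 13420558 and 15727667 reads, so 1 read was worth 0.0588 to 0.0787 CPM (read counts scaled to library size with TMM factors). Of 13591 genes that passed the filter on low counts, 82.3% were called at an adjusted p under 0.05, with 40.6% higher and 41.7% lower with mebendazole. A call alone therefore says little about a gene here, and sizes are given first. The share of all tested genes whose groups do not overlap was not computed. A lack of overlap, given below for single genes, therefore does not set a gene apart from the others. Summed levels of 10 monocyte markers were 1900 to 1949 CPM with mebendazole and 1913 to 2020 CPM with DMSO, with 2 called higher and 6 lower, the smallest p being those of CD33 (log2 fold change -1.76), SPI1 (0.98) and LYZ (-0.70). Of 7 lymphocyte markers, CD3D, CD3E, CD3G and MS4A1 had 0 reads in 1 of the groups and at most 5 in the other, and NKG7 alone was tested (log2 fold change 0.82). Lymphocyte markers summed to 26.1 to 26.6 CPM with mebendazole and 14.3 to 16.3 CPM with DMSO, of which NKG7 made up 25.0 and 14.1 CPM on average, and their part in the results was not tested. Epithelial, stromal and endothelial markers summed to 2.28 to 3.33 CPM with mebendazole and 1.82 to 2.85 CPM with DMSO, and KRT5 had no read. Platelet and megakaryocyte markers summed to 3.45 to 3.97 CPM with mebendazole and 3.15 to 3.47 CPM with DMSO. In such bulk RNA, a change in the number of cells that carry a transcript and a change in RNA per cell cannot be told apart.

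Of the ELR chemokine genes, IL8 and the 3 close relatives CXCL1, CXCL2 and CXCL3 rose with mebendazole by 12.4-fold to 129-fold in summed reads, whereas CXCL5 had 1 read in all 6 libraries. IL8 encodes interleukin 8, the main neutrophil attractant of human monocytes. IL8 had 1553, 1399.9 and 1559 CPM in the mebendazole libraries, against 13.7, 10.6 and 10.8 CPM in the DMSO libraries. The groups lay far apart, and the lowest mebendazole library exceeded every DMSO library. The log2 fold change of IL8 was 7.01 (adjusted p = 6.4e-77, edgeR, n = 3 per group). Its log2 ratios within the 3 pairs were 6.83, 7.05 and 7.18 (SD 0.18), and the ratio of summed reads was 129 (95% counting interval 119 to 141), from 59976 reads with mebendazole and 547 with DMSO. All 10 genes together took 0.141% to 0.154% of the reads in mebendazole libraries and 0.00226% to 0.00266% in DMSO libraries. IL8 alone made up 92.0% to 92.55% of these reads with mebendazole and 50% to 55.6% with DMSO.

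CXCL1, CXCL2 and CXCL3 (GRO alpha, beta and gamma) are close relatives that act on the neutrophil receptor CXCR2. CXCL1 had 45.1, 45.2 and 46.4 CPM with mebendazole, against 4.01, 3.39 and 3.59 CPM with DMSO. CXCL2 had 40.03, 41.5 and 42.0 CPM with mebendazole, against 1.45, 0.949 and 0.941 CPM with DMSO. In neither gene did the groups overlap, and the mebendazole libraries lay close together. CXCL3 had 16.3, 14.3 and 17.9 CPM with mebendazole, against 0.263, 0.610 and 0.588 CPM with DMSO, again without overlap. Its DMSO values rest on 4, 9 and 10 reads, and it passed the filter on low counts only through the mebendazole libraries. The log2 fold change was 3.63 for CXCL1 (adjusted p = 1.8e-44), 5.21 for CXCL2 (adjusted p = 2.6e-46) and 5.03 for CXCL3 (adjusted p = 4.2e-35) in edgeR. The ratios of summed reads were 12.4 for CXCL1 (95% counting interval 10.6 to 14.6), 37.2 for CXCL2 (28.2 to 49.985) and 33.0 for CXCL3 (21.8 to 52.4). CXCL1 thus had the smallest ratio of these 3 genes, with a counting interval that did not overlap those of CXCL2 and CXCL3, whose own intervals overlapped.

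**Figure D1:**
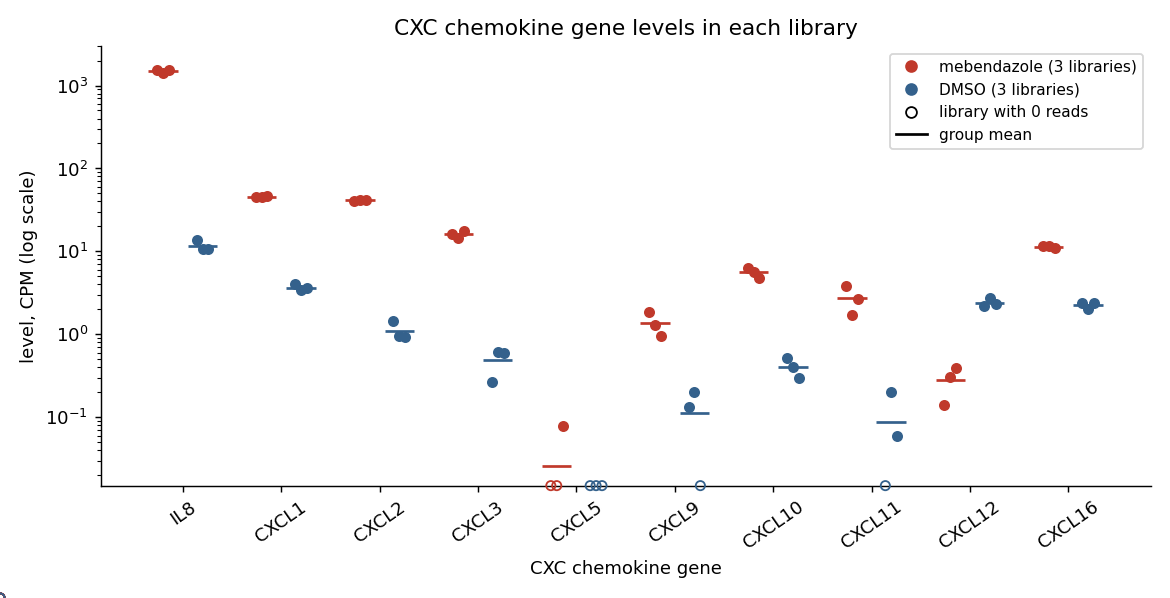
Levels of the 10 CXC chemokine genes in CPM on a log axis, with mebendazole libraries left and DMSO libraries right for each gene, 1 point per library, a bar at each group's mean and open points on the axis for libraries with 0 reads. IL8 lies at 1399.9 CPM or more with mebendazole and at 13.7 CPM or less with DMSO, CXCL12 is the gene with lower mebendazole points, and CXCL5 has 1 library with a read.

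The unequal rises changed the make-up of the CXCL1, CXCL2 and CXCL3 reads. CXCL1 supplied 44.3% of their summed reads with mebendazole (exact 95% interval 42.8% to 45.8%), against 69.6% with DMSO (63.5% to 75.3%). By library its share was 43.7% to 44.7% with mebendazole and 68.5% to 70.1% with DMSO, so the groups did not overlap. CXCL2 supplied 40.01% with mebendazole (38.5% to 41.5%) and 21.1% with DMSO (16.1% to 26.7%). CXCL3 supplied 15.7% with mebendazole (14.6% to 16.9%) and 9.31% with DMSO (5.99% to 13.6%). These genes resemble each other in sequence, and 5.73%, 9.24% and 5.26% of the 50-base stretches in transcripts of CXCL1, CXCL2 and CXCL3 also occur in a transcript of another CXC gene, so some reads may be split or dropped between them. No 50-base stretch of the other 7 members was shared in this way. As 1 summed unit, the 3 genes had 103 ± 2.95 CPM with mebendazole and 5.26 ± 0.405 CPM with DMSO (SD, n = 3 each), a log2 fold change of 4.29 (adjusted p = 1.4e-54, edgeR) that does not depend on how reads were split among them.

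CXCL5, another ELR chemokine, had 0, 0 and 1 reads with mebendazole and 0 reads in each DMSO library. It was not tested, and no fold is given. At this depth a count of 0 allows up to 3 reads, or 0.176 to 0.236 CPM in a library.

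**Figure D2:**
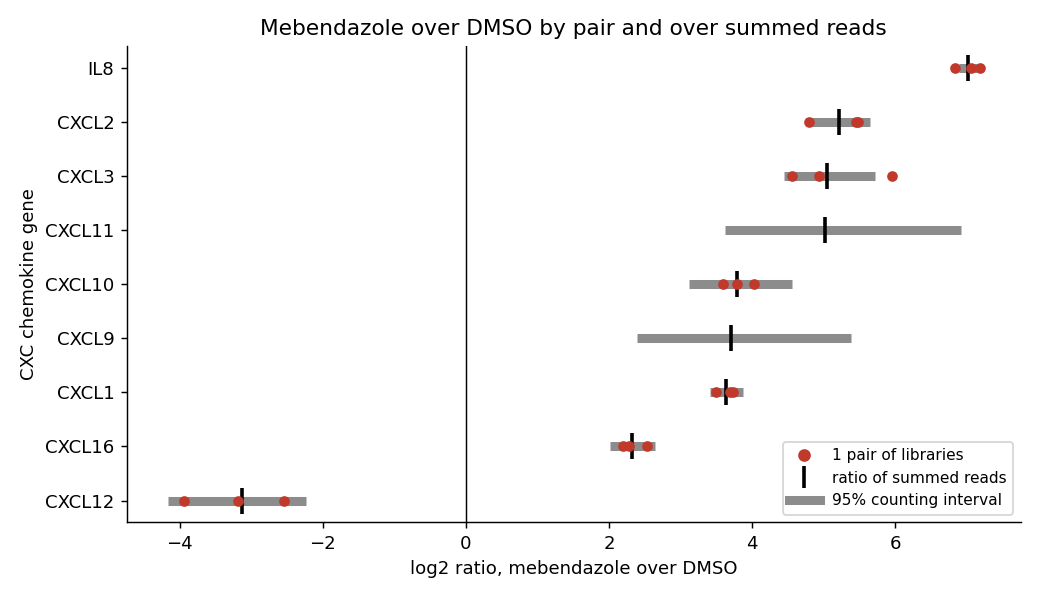
Log2 ratio of mebendazole over DMSO for the 9 genes with enough reads, as points for each of the 3 pairs, a tick for the ratio of summed reads and a grey bar for its 95% counting interval. CXCL9 and CXCL11 have no pair points because a DMSO library had 0 reads, and CXCL12 is the only one of the 9 genes left of 0.

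The stretch before the start of each ELR gene is shown because these genes share a core motif there. The 200 bases before the RefSeq start (build GRCh38.p14) are given 5′ to 3′ along the gene, and capitals mark matches to GGNNNTTCC, a kappaB-type motif of the kind NF-kB binds, on either strand. IL8 lies at chr4:73740369-73740568 (plus strand), CXCL1 at chr4:73869193-73869392 (plus strand), CXCL2 at chr4:74099196-74099395 (minus strand), CXCL3 at chr4:74038690-74038889 (minus strand) and CXCL5 at chr4:73998678-73998877 (minus strand).
IL8: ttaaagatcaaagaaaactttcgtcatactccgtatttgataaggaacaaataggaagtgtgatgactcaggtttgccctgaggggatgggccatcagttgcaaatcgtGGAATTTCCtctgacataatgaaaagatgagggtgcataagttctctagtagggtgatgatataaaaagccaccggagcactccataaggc
CXCL1: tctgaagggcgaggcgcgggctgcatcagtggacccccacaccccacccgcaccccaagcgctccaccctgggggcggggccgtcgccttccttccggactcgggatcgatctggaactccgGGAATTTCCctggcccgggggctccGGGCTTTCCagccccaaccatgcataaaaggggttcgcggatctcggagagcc
CXCL2: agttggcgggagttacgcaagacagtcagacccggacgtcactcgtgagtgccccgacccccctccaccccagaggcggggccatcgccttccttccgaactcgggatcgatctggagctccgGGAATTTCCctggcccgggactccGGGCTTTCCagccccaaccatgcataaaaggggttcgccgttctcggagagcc
CXCL3: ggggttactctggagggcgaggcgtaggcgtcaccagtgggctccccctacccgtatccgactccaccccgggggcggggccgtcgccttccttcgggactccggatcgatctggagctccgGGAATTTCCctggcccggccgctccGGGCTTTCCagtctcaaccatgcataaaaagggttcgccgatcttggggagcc
CXCL5: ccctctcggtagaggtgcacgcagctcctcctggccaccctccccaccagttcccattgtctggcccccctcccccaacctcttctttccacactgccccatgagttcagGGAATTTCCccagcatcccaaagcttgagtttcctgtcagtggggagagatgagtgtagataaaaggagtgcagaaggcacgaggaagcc

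The same 9 letters, GGAATTTCC, stood in all 5 of these stretches, with the first base 91 bases before the start in IL8, 78 in CXCL1, 77 in CXCL2, 78 in CXCL3 and 90 in CXCL5. CXCL1, CXCL2 and CXCL3 held another match, GGGCTTTCC, 53 bases before the start. Between 77.2% and 80.8% of aligned positions were identical among the stretches of CXCL1, CXCL2 and CXCL3, against 45.1% to 46.5% between each of them and IL8. The motif was present in CXCL5 as well as in the genes that rose, so its presence in this window did not separate them. IL8 also held TGACTCA, a match to the AP-1-type motif TGANTCA, 137 bases before the start.

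Over the whole windows of 250 bases before to 50 after the start, searched on both strands, 7 of the 9 members with a window held GGNNNTTCC, against 20.1% of 35116 RefSeq windows. The motif letters were set with the known elements of IL8 and its relatives in mind, so that share is no independent result. TGANTCA was found in IL8 and CXCL11 (7.71% of all windows), an interferon-response-type motif (GAAA repeated after any 2 bases) in CXCL9 and CXCL10 (3.57%), and TATAAA in IL8, CXCL9 and CXCL11 (11.5%). The members without GGNNNTTCC were CXCL9, which rose with mebendazole, and CXCL12, which fell and held none of the 4 motifs. Outside the members, CXCL6 held GGNNNTTCC and CXCL14 did not, and both rose (described below). Absence of the motif thus did not separate the gene that fell from those that rose. No match overlapped a match to another of the 4 motifs. A match describes letters and shows no binding.

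**Figure D3:**
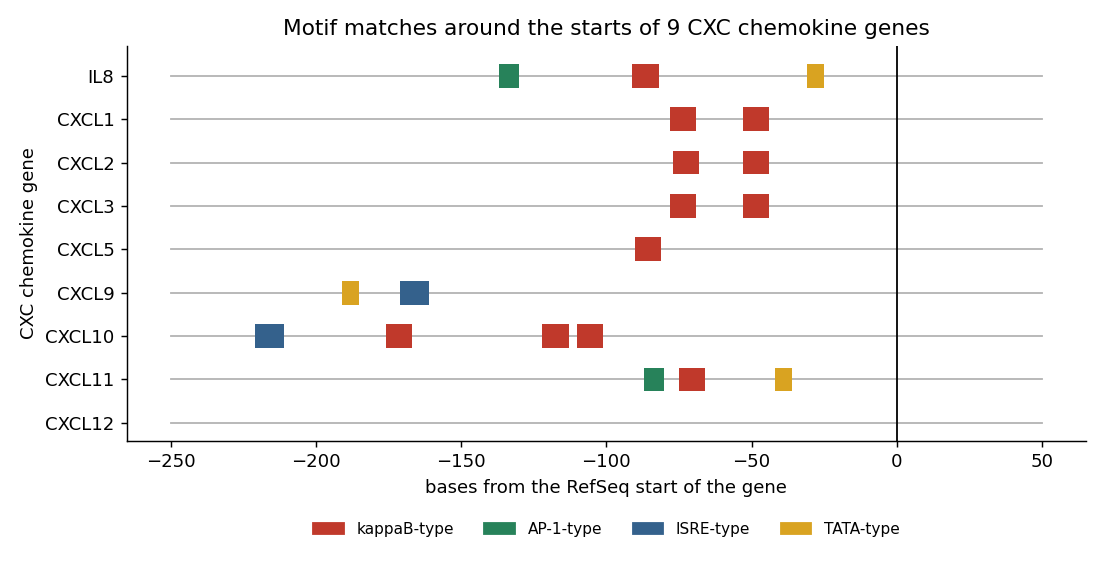
Positions of matches to the 4 motifs from 250 bases before to 50 after the RefSeq start of 9 CXC chemokine genes, drawn to scale in bases, with the start as a vertical line. Kappa-B type matches lie between 91 and 45 bases before the start in IL8, CXCL1, CXCL2, CXCL3 and CXCL5, within the same range in CXCL11 and further upstream in CXCL10.

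CXCL9, CXCL10 and CXCL11, the chemokines that draw T cells through CXCR3, also rose with mebendazole. CXCL10 had 6.31, 5.60 and 4.80 CPM with mebendazole, against 0.526, 0.407 and 0.294 CPM with DMSO. CXCL11 had 54, 22 and 34 reads with mebendazole, against 0, 3 and 1 reads with DMSO. CXCL9 had 26, 17 and 12 reads with mebendazole, against 2, 3 and 0 reads with DMSO. No group overlapped in these 3 genes, and mebendazole replicate 1 was the highest library for each. The log2 fold change of CXCL10 was 3.75 (adjusted p = 3.3e-21, edgeR), with 3.58, 3.78 and 4.03 in the 3 pairs. The ratio of summed reads was 13.8 for CXCL10 (95% counting interval 8.65 to 23.4), 32.4 for CXCL11 (12.3 to 121) and 13.0 for CXCL9 (5.23 to 41.5), so the 3 ratios could not be ordered. In edgeR the log2 fold change was 4.87 for CXCL11 (adjusted p = 2.7e-15) and 3.56 for CXCL9 (adjusted p = 5.9e-09). All 3 genes passed the filter on low counts only through the mebendazole libraries, so their p-values are a description. Without replicate 1 CXCL11 was at 4.04 and without replicate 2 at 6.37, and CXCL9 was at 4.30 without replicate 2, each with the pair left out in both groups.

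The stretches of CXCL10 (chr4:76023498-76023697 (minus strand)) and CXCL11 (chr4:76036071-76036270 (minus strand)) are shown because both hold the kappaB-type motif beside or without the interferon type, with the same marking.
CXCL10: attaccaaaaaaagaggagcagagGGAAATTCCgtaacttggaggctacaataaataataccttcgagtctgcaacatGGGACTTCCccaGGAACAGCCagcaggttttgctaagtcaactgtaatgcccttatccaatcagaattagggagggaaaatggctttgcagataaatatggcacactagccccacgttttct
CXCL11: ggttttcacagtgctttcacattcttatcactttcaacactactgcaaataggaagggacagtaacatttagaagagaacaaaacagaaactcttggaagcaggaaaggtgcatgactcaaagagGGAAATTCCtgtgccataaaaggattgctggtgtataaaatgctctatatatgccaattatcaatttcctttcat

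Both held GGAAATTCC, 176 bases before the start in CXCL10 and 75 in CXCL11, and CXCL10 held 2 more matches, GGGACTTCC and, on the other strand, GGAACAGCC as read along the gene. The interferon-type match of CXCL10, GAAAGTGAAA, began 221 bases before the start and that of CXCL9, GAAATGGAAA, 171 bases before it. ART3 spans CXCL10 and CXCL11 on the opposite strand in GENCODE release 29 and shares 0 exon bases with them, and it had 3 reads with mebendazole and 1 with DMSO.

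CXCL12, the ligand that retains stem cells and leukocytes in tissues, was the 1 member called lower. It had 2, 4 and 5 reads with mebendazole, against 33, 41 and 39 reads with DMSO. In CPM these were 0.142, 0.307 and 0.393 with mebendazole and 2.17, 2.78 and 2.29 with DMSO. Every mebendazole library lay below every DMSO library, and both groups were low. The gene passed the filter on low counts only through the DMSO libraries. The log2 fold change of CXCL12 was -3.08 (adjusted p = 1.1e-11, edgeR), and the summed reads were 8.72-fold lower with mebendazole (95% counting interval 4.69 to 18.0). The pairs gave -3.94, -3.18 and -2.54 (SD 0.70).

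CXCL16, the membrane-bound chemokine that also acts as a scavenger receptor, showed the smallest change of the tested members. It had 11.5, 11.7 and 11.0 CPM with mebendazole, against 2.37, 2.03 and 2.41 CPM with DMSO. The groups did not overlap. The log2 fold change of CXCL16 was 2.32 (adjusted p = 3.1e-23, edgeR), with 2.28, 2.53 and 2.19 in the pairs and a ratio of summed reads of 5.01 (95% counting interval 4.05 to 6.25). Its exons share 85 bases with MED11, a Mediator subunit gene on the opposite strand, which had 197 reads with mebendazole and 285 with DMSO. The library kit does not mark strand, so reads in the shared bases cannot be told apart.

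Per kilobase of exon (RPKM, computed from CPM and exon lengths of GENCODE release 29), IL8 was the highest member in both groups. With mebendazole IL8 reached 751 ± 45.0 RPKM (SD, n = 3), followed by CXCL1 at 41.5 ± 0.690, CXCL2 at 33.8 ± 0.847 and CXCL3 at 15.04 ± 1.64 RPKM. CXCL10 at 4.74 ± 0.641 and CXCL16 at 4.70 ± 0.150 RPKM did not differ beyond their spread, and CXCL11 (1.43 ± 0.561), CXCL9 (0.498 ± 0.165), CXCL12 (0.0539 ± 0.0246) and CXCL5 (0.0103, 1 read) came after them. With DMSO the span was narrower. IL8 stood at 5.83 ± 0.867 and CXCL1 at 3.34 ± 0.289 RPKM, and CXCL16 (0.935 ± 0.0847) and CXCL2 (0.913 ± 0.238) overlapped. CXCL12 (0.464 ± 0.0620), CXCL3 (0.453 ± 0.181) and CXCL10 (0.348 ± 0.0986) overlapped as well, as did CXCL11 (0.0458 ± 0.0549) and CXCL9 (0.0407 ± 0.0376). With the length of the longest transcript in place of all exons, CXCL12 had a mean of 0.683 RPKM with DMSO. CXCL3 and CXCL10 kept the means above, so their overlap with CXCL12 depends on the length used. CXCL12 was thus among the middle members with DMSO and next to last with mebendazole.

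Set among all tested genes, the log2 fold change of IL8 ranked 43 from the top of 13591, that of CXCL2 120, CXCL3 136 and CXCL11 154. CXCL10 ranked 293, CXCL1 313, CXCL9 334 and CXCL16 754, and CXCL12 ranked 13487. Of the 9 tested members 8 were called higher and 1 lower, with a median log2 fold change of 3.75, against -0.03 over all tested genes. Against a 2-fold change (glmTreat in edgeR) the same 8 were called higher and CXCL12 lower, where 13.2% of tested genes were called higher and 10.7% lower. Only IL8, CXCL1, CXCL2 and CXCL16 passed the filter on low counts in all libraries of both groups. CXCL3, CXCL9, CXCL10 and CXCL11 passed through the mebendazole libraries and CXCL12 through the DMSO libraries, so these 5 could hardly be tested without differing, and the counts are a description.

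**Figure D4:**
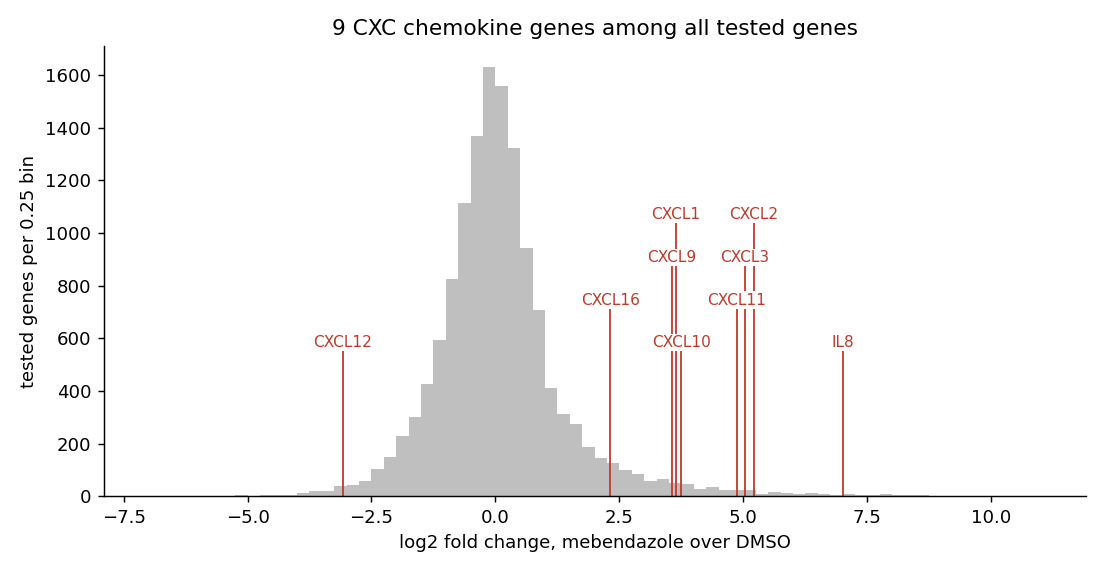
Number of tested genes in log2 fold change bins of width 0.25 (grey) with red lines at the 9 tested CXC chemokine genes, whose heights only space the labels. The median gene lies at -0.03, CXCL16 at 2.32, IL8 at 7.01 and CXCL12 at -3.08.

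Of the 7 other CXC chemokine genes listed, CXCL6 and CXCL14 were tested and both rose. CXCL6, an ELR chemokine next to IL8, had 12.9, 12.04 and 10.9 CPM with mebendazole, against 0.657, 0.407 and 0.647 CPM with DMSO (log2 fold change 4.35, adjusted p = 9.9e-31, edgeR). CXCL14 had 2.55, 3.15 and 3.62 CPM with mebendazole, against 0.263, 0.136 and 0.176 CPM with DMSO (log2 fold change 3.96, adjusted p = 6.8e-16, edgeR). In neither gene did the groups overlap. Both passed the filter only through the mebendazole libraries, so they could hardly be tested without differing. Their p-values and the count of 2 are therefore a description, beside 40.6% of all tested genes called higher. PPBP, a platelet chemokine gene, had 3, 2 and 3 reads with mebendazole and 0 with DMSO. PF4 had 1 and 0 reads, CXCL13 9 and 4, CXCL17 0 and 2, and PF4V1 none, in mebendazole and DMSO libraries.

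In the RefSeq order of chromosome 4, IL8, CXCL6, PF4V1, CXCL1, PF4, PPBP, CXCL5, CXCL3 and CXCL2 follow each other with no other protein-coding gene between them. Within this block the 5 tested genes (IL8, CXCL6, CXCL1, CXCL3 and CXCL2) all rose. They were interleaved with 4 untested genes at or near 0 reads (PF4V1, PF4, PPBP and CXCL5). Of these, PPBP had its few reads (3, 2 and 3) with mebendazole only. PF4, PPBP and CXCL5 lie side by side between CXCL1 and CXCL3, and their largest value in any library was 0.236 CPM. CXCL9, CXCL10 and CXCL11 form another block, with ART3 starting between CXCL9 and CXCL10.

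**Figure D5:**
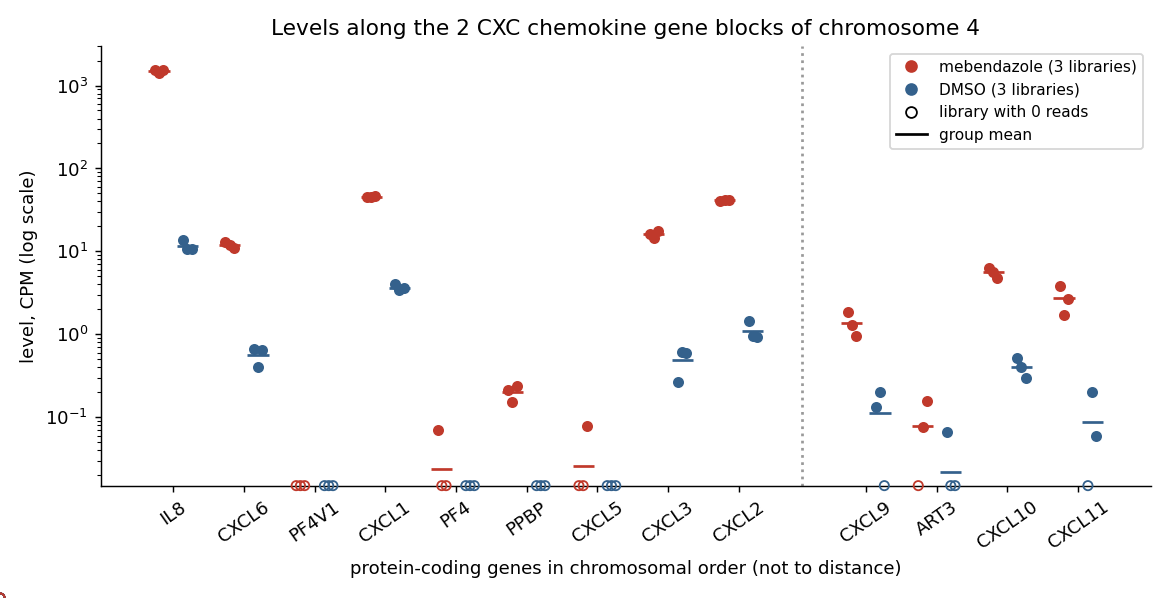
CPM on a log axis for the protein-coding genes of both CXC blocks of chromosome 4, in chromosomal order but not spaced by distance, with mebendazole libraries left and DMSO libraries right, bars at group means and open points for 0 reads. Genes above 10 CPM with mebendazole stand on both sides of PF4, PPBP and CXCL5, which stay at 0.236 CPM or below.

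The receptors of these ligands moved in both directions, as did all tested genes (82.3% called, 40.6% higher and 41.7% lower). Of 8 receptor genes listed, 5 were tested, and 3 were called higher and 2 lower. That count as such is no result about the receptors. CXCR2, the neutrophil receptor for the ELR chemokines, had 1.33 ± 0.195 CPM with mebendazole and 13.2 ± 0.935 CPM with DMSO (SD, n = 3 each, log2 fold change -3.30, adjusted p = 7.5e-29, edgeR), while its ligand genes IL8, CXCL1, CXCL2, CXCL3 and CXCL6 rose. CXCR4, the CXCL12 receptor, had 461 ± 4.97 CPM with mebendazole and 89.0 ± 1.30 CPM with DMSO (2.37, adjusted p = 2.9e-57, edgeR). CXCR7, which takes up CXCL12 and CXCL11, had 62.5 ± 1.08 CPM with mebendazole and 2.04 ± 0.580 CPM with DMSO (4.94, adjusted p = 2.4e-50, edgeR). CXCL12 and its receptors therefore changed in opposite directions. CXCR3, the receptor for CXCL9 to CXCL11, had 3.10 ± 0.433 CPM with mebendazole and 4.20 ± 0.411 CPM with DMSO, a log2 fold change of -0.44 (adjusted p = 0.019, edgeR). CXCR5, the CXCL13 receptor, had 79, 100 and 89 reads with mebendazole and 1 read in all DMSO libraries, so it passed the filter only through the mebendazole libraries. CXCR6, the CXCL16 receptor, had 0 reads with mebendazole and 3 with DMSO.

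Genes that act before or after these chemokines were read from lists, beside the 82.3% of all tested genes that were called (40.6% higher and 41.7% lower). Counted in either direction, the shares called in the interferon and protease lists lay near 82.3%, and in the list of mRNA-binding factors below it. Such shares are therefore no result about the lists. By direction, 9 interferon genes were called higher and 0 lower, and 5 protease genes higher and 1 lower. No list was tested as a set. The NF-kB and AP-1 list holds factors of ELR chemokine promoters and their regulators, and also CEBPB of another family. All 12 of its genes were called higher (median log2 fold change 2.55). FOSL2 at 3.99, NFKB2 at 3.40 and JUN at 2.99 had the smallest p, and FOS at 0.29 and RELA at 0.93 changed least. Of 11 tested interferon signalling genes reported here, 9 were called higher in edgeR and 2 did not pass the test, and their median log2 fold change was 0.61. The receptor chains IFNGR1 and IFNGR2 had log2 fold changes of 1.32 and 0.81, and the interferon regulatory factor gene IRF7 had 1.64. IFNG had no read in any library and IFNB1 had 0 with mebendazole and 1 with DMSO. Of 8 genes for factors that bind or cut mRNAs, such as those of IL8 and the GRO genes, 3 were called higher and 3 lower (median -0.03). ZC3H12A, an endonuclease that degrades inflammatory mRNAs, rose by 2.83 on the log2 scale and ZFP36 by 1.04, and ZFP36L2 fell (-1.15). Of 7 tested protease genes from a list that cleaves or sheds CXC chemokines, 5 were called higher and 1 lower (median 0.79). CTSL1 (3.05), MMP9 (2.76) and ANPEP (0.79) had the smallest p, and ADAM10, the main sheddase of CXCL16, was at 0.89.

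The genes whose pattern over the 6 libraries lay nearest to IL8, by Euclidean distance between log2 CPM profiles centred on each gene's mean, were CCDC68 (distance 0.337), CCL22 (0.338) and TNFRSF18 (0.342). CCL22, a CC chemokine, had 1069 ± 39.6 CPM with mebendazole and 7.64 ± 0.223 CPM with DMSO. CCDC68 (0.0860 ± 0.0396 CPM) and TNFRSF18 (0.236 ± 0.0812 CPM) were near the floor with DMSO. The log2 fold changes of CCDC68, CCL22 and TNFRSF18 were 7.98, 7.13 and 7.46, against 7.01 for IL8. Nearest to CXCL16 were IL27RA (0.0673), MAP2K3 (0.0932) and MGAM (0.102), with log2 fold changes of 2.24, 2.25 and 2.34. The profiles were computed with a prior count of 2 added to the reads, which shrinks the fold of genes with few reads. With only these groups, such distances mostly reflect the size of the fold change after that addition.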

How the data were processed

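The 6 THP-1 libraries were prepared from total RNA with Illumina TruSeq RNA v2 chemistry, according to the labels. The deposited values are unnormalised counts of reads for each gene symbol, with a column for every library. The submitters' processing notes name STAR, bedtools, HTSeq, DESeq2 and hg19 but no version. Annotation, strand setting and read length: not given in the sources used here.

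Tests ran in edgeR 4.0.16 (R 4.3.3): filterByExpr (minimum count 10, here 0.711 CPM in 3 libraries), TMM scaling, and the two-sided quasi-likelihood F test with the sample pair as a term, because the labels state pairs. The 13591 genes kept held 99.9% of the reads, and Benjamini-Hochberg adjustment ran over all of them at a threshold of 0.05. Each gene had 2 residual degrees of freedom against a prior of 61.0, so very small p-values rest on spread pooled over genes. Ratios of summed reads carry exact (Clopper-Pearson) 95% intervals, which cover counting error only, as do floors of 3 reads. DESeq2 1.42.0, other scalings and filters, left-out pairs and a fit without the pair were alternatives. The test was checked on simulated data. No replicates agreed within sampling noise (chi-square per degree of freedom 1.45 to 3.30).

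Promoters are RefSeq sequences (GRCh38.p14) for 9 of 10 members, with IL8 matched as CXCL8, aligned globally with Biopython 1.88. Exon lengths and overlaps came from GENCODE release 29. Members, lists, motifs and tests were chosen with earlier results of these data known. The genes named are all members, the 3 tested genes with the smallest p in each list, and the 3 nearest in pattern to IL8 and CXCL16. Other receptors, list members with few reads, FOS, RELA, CEBPB, ADAM10, MED11 and ART3 were chosen after their values were seen. A gene of the lists is not reported here.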

Additional observations from a re-analysis of the deposited data

How the results depend on the processing

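Each tested member was recomputed under 9 to 11 alternatives, and all 87 values kept their sign and call. CXCL3, CXCL9, CXCL10, CXCL11 and CXCL12 passed the filter through 1 group only, and most alternatives keep that filter. For these 5 genes a kept call was therefore likely beforehand. The count of 9 called members held in every alternative except the one limited to a mean CPM of 10 or more, where 3 members were tested and 3 called. Over all genes, 11192 of 13591 tested were called (82.3%). The test against 2-fold (chosen after the data were seen, with a stricter null) called 3248, and the others 8258 to 11760. Leaving out 1 pair gave 10572 to 10885 genes and 9 members each time. With no replicate block 11118 genes and 9 members were called. The deviations of same-numbered libraries had correlations of -0.0010, 0.061 and 0.016, and only those of pair 2 were each other's best match, so the pairing rests on the labels. Scaling by library totals put the median gene at -0.27 on the log2 scale, against -0.03 with TMM, and IL8 at 6.77, CXCL16 at 2.08 and CXCL12 at -3.32. Summing the reads of CXCL1, CXCL2 and CXCL3 gave 4.29, by construction between the 3 single values. Over its alternatives IL8 lay between 6.77 and 7.12, CXCL10 between 3.50 and 3.87, and CXCL12 between -3.43 and -2.83. The largest adjusted p of any member was 1.4e-04, for CXCL11 in DESeq2. Of 35 named genes, 25 kept sign and call in every alternative and 31 apart from the 2-fold test, where the exceptions were the marker genes COL1A1, GP9, GP1BA and ITGA2B. The 2-fold test ended the calls of ANPEP, IFNGR2, ZFP36, SPI1, LYZ, NKG7 and GP9. ITGA2B, not called, turned to -0.10 with library totals, by the shift of that scaling. Depth limits CXCL3, CXCL5, CXCL9, CXCL10, CXCL11 and CXCL12, each with 0 to 5 reads in some library.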
